A study of Oryctolagus cuniculus with 9 samples.

Results

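The 10 genes described here are the cytokine gene TNF, its receptor genes TNFRSF1A and TNFRSF1B, the NF-kappaB subunit genes NFKB1, NFKB2, REL and RELB, and the feedback genes NFKBIA, TNFAIP3 and BIRC3. They were chosen by symbol, all 10 were found among the 20525 genes of the deposited table, and all 10 were among the 17344 genes tested. Expression was measured by sequencing polyadenylated RNA from vocal fold tissue of the rabbit (Oryctolagus cuniculus). Each of 3 groups had 3 libraries: normal folds with no injury, injured folds with no treatment, and injured folds that received a hydrogel called SOT. The title calls the hydrogel antioxidant and adhesive, and the labels do not expand its name. The injured folds of both groups were taken 1 week after injury, while strain, age, sex and the way of wounding were not stated in the labels. The labels do not say that replicates were separate animals, so the p-values rest on the variation among these libraries, part of which may be technical.

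The cytokine TNF is made mainly by activated macrophages and other leukocytes and binds the receptors TNFR1, present on most cells, and TNFR2, found mostly on immune and endothelial cells. Receptor signalling frees NF-kappaB dimers from inhibitors of the IkappaB family, and the dimers enter the nucleus and switch on inflammatory genes. Among their targets are genes that restrain the pathway, which include NFKBIA (the inhibitor IkappaB-alpha), TNFAIP3 (the ubiquitin-editing enzyme A20), NFKB1 and NFKB2, so the RNA of these genes is often read as a trace of recent NF-kappaB activity. Protein, nuclear entry and DNA binding were not measured here.

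Total counts were between 44755718 and 50338111 per library. As cell type the labels give vocal cord histiocytes, a term for tissue macrophages. The libraries also held markers of other cells. In normal folds, 14 macrophage markers summed to between 449 and 542 CPM (counts scaled to library size by edgeR) per library, beside between 18793 and 24464 CPM for 10 skeletal muscle markers and between 13837 and 17804 CPM for 11 fibroblast markers. Such sums depend on which genes are listed, so they do not measure the share of each cell type. None of the macrophage markers in the table was at 0 in all libraries. In such bulk tissue, fewer cells of a type and less RNA per cell cannot be told apart. SOT replicate 1 stood apart from the other SOT libraries in several of the genes described here, so results on SOT folds are given with and without it.

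All 10 genes rose in untreated injured folds, TNF by far the most. Changes are log2 fold changes from edgeR's quasi-likelihood test, and a gene is said to have risen or fallen where the p adjusted over all 17344 tested genes (Benjamini-Hochberg) was under 0.05. By this rule 17.7% of tested genes were higher in untreated than in normal folds. Each of the 10 genes was also higher in every untreated library than in every normal one, which held for 28% of tested genes. The median change of the 10 genes was 2.04 on the log2 scale, beside -0.02 over all tested genes. Without normal replicate 1, 6 of the 10 rose.

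TNF lies on chromosome 12 at 20399432 to 20402011 of the build OryCun2.0. Its level was 1.57, 1.74 and 2.34 CPM in normal replicates 1, 2 and 3, and 114, 39.9 and 75.7 CPM in untreated replicates 1, 2 and 3. In the SOT libraries it was 168, 4.80 and 5.09 CPM in replicates 1, 2 and 3. SOT replicate 1 was thus above every untreated library, while SOT replicates 2 and 3 were below every untreated library and above every normal one. TNF rose in untreated against normal folds by 5.35 on the log2 scale (SE 1.44, adjusted p = 0.0233). That call was lost without normal replicate 1 (adjusted p = 0.0798), 2 (0.0763) or 3 (0.0642) and without untreated replicate 3 (0.0561). Without SOT replicate 1, which had entered the shared estimate of the spread, the same change had an SE of 0.42 and an adjusted p of 0.000346.

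**Figure D1:**
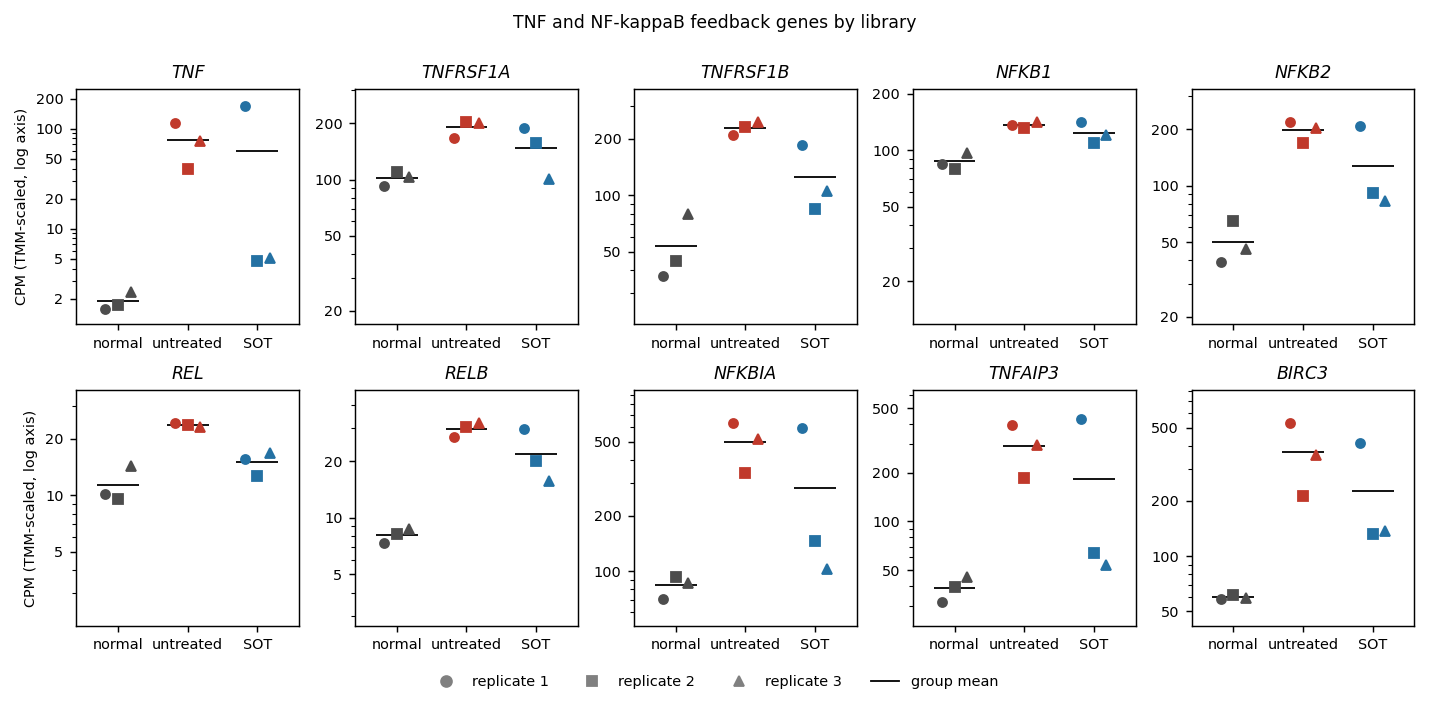
Level of each of the 10 genes in every library, in CPM on a log axis, with libraries as points shaped by replicate number and a line at the mean of 3. Untreated libraries lie above all normal ones in every panel, and SOT replicate 1 lies at 168 CPM for TNF while SOT replicates 2 and 3 lie at 4.80 and 5.09 CPM.

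The receptor genes rose by different amounts. TNFRSF1A, which encodes TNFR1, the receptor with a death domain (chromosome 8 at 32400420 to 32415628), had 92.5, 110.1 and 103 CPM in the normal libraries and 166, 204 and 201 CPM in the untreated ones. It rose by 0.90 on the log2 scale (SE 0.21, adjusted p = 0.0140), a change of less than 2-fold. This call was lost without normal replicate 1 (0.0535) or untreated replicate 3 (0.0533), and without untreated replicate 2 it lay just over the threshold of 0.05. TNFRSF1B, which encodes TNFR2 and is placed on a scaffold with no chromosome, had 37.0, 44.7 and 79.2 CPM in normal replicates 1, 2 and 3 and 210.5, 232 and 248 CPM in the untreated libraries. It rose by 2.10 (SE 0.36, adjusted p = 0.00385). Normal replicate 3 was the highest normal library for TNFRSF1B, and its summed neutrophil markers were also the highest, at 2048 CPM beside 598 and 686 CPM in the other normal libraries. It was highest as well for stratified epithelium markers (32102 beside 12512 and 16202 CPM) and skeletal muscle markers (24464 beside 18793 and 22189 CPM). It was lowest for B and plasma cell, mast cell and cartilage markers. For macrophage markers it lay between the others, at 477 beside 449 and 542 CPM. The part of any of these cells in the receptor's level was not tested.

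Levels of different genes can be compared per length in FPKM, the authors' values scaled to transcript length and library size. The FPKM ratio of TNFRSF1B to TNFRSF1A was 0.426, 0.432 and 0.816 in normal replicates 1, 2 and 3, so TNFRSF1A was the more abundant receptor RNA in each. In the untreated libraries the ratio was 1.35, 1.21 and 1.31, and TNFRSF1B was the more abundant in each. The groups did not overlap, and the mean log2 ratio differed by 1.28 (exact permutation test, two-sided p = 0.1, the lowest value possible with 3 libraries a group). The ratio was 1.05, 0.576 and 1.11 in SOT replicates 1, 2 and 3. Here SOT replicate 2, not 1, was the library apart, and it lay within the normal range.

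Among the NF-kappaB subunit genes, NFKB2 and RELB had larger changes than NFKB1 and REL. NFKB1, which encodes p105, the precursor of p50 (chromosome 15 at 47002639 to 47236690), had 84.8, 79.6 and 97.0 CPM in normal and 137, 131 and 142 CPM in untreated libraries. It rose by 0.65 (SE 0.12, adjusted p = 0.00592), the smallest change of the 10. NFKB2, which encodes p100, the precursor of p52 in the non-canonical branch (chromosome 18 at 50403701 to 50412759), had 39.3, 65.0 and 45.7 CPM in normal and 219.8, 170.0 and 204 CPM in untreated libraries. It rose by 1.99 (SE 0.37, adjusted p = 0.00534).

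REL and RELB encode subunits that carry their own activation domains. REL, or c-Rel, known from lymphoid and myeloid cells (chromosome 2 at 125303644 to 125350293), had 10.1, 9.57 and 14.4 CPM in normal and 24.2, 23.6 and 23.1 CPM in untreated libraries. It rose by 1.06 (SE 0.19, adjusted p = 0.00434), and the untreated libraries differed little from each other. RELB, the partner of p52, lies on a scaffold with no chromosome, and the deposited table describes its protein as partial. It had 7.38, 8.20 and 8.71 CPM in normal and 27.0, 30.4 and 32.0 CPM in untreated libraries, and it rose by 1.88 (SE 0.22, adjusted p = 0.00109). The calls for NFKB1, NFKB2, REL and RELB held whichever of the 9 libraries was left out. The remaining subunit, RELA, was not among the tested genes under that symbol.

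The FPKM ratio of NFKB2 to NFKB1 was 0.605, 1.07 and 0.615 in normal replicates 1, 2 and 3 and 2.09, 1.70 and 1.87 in the untreated libraries. The groups were apart and the mean log2 ratio differed by 1.36 (two-sided exact permutation p = 0.1). In SOT replicate 1 the ratio was 1.93, within the untreated range, and in SOT replicates 2 and 3 it was 1.09 and 0.899.

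The feedback genes had the next largest changes after TNF. NFKBIA (chromosome 17 at 55106444 to 55109627) had 71.3, 93.4 and 87.0 CPM in normal and 633, 341 and 518 CPM in untreated libraries. It rose by 2.57 (SE 0.62, adjusted p = 0.0156), a call lost without normal replicate 1 (0.0591). TNFAIP3, which lies on the same chromosome as TNF at 128329717 to 128346076, had 31.9, 39.3 and 45.2 CPM in normal and 393, 185 and 297 CPM in untreated libraries. It rose by 2.91 (SE 0.78, adjusted p = 0.0228). Leaving out normal replicate 1 (0.0783), 2 (0.0700) or 3 (0.0577), or untreated replicate 1 (0.0532) or 3 (0.0603), ended its call. BIRC3, which encodes the ubiquitin ligase cIAP2 of the TNF receptor complex (chromosome 1 at 114195694 to 114215166), had 58.4, 61.3 and 59.1 CPM in normal and 535, 212 and 358 CPM in untreated libraries. It rose by 2.63 (SE 0.50, adjusted p = 0.00622) and kept its call without each of the 9 libraries.

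TNF, the 3 feedback genes and NFKB2 shared an order among the untreated libraries, with replicate 1 highest, replicate 3 next and replicate 2 lowest. Macrophage and neutrophil markers had the reverse order. Summed macrophage markers were 1743, 2661 and 2326 CPM and summed neutrophil markers 5234, 7198 and 6236 CPM in untreated replicates 1, 2 and 3. B and plasma cell markers, at 751, 351 and 471 CPM, had the same order as TNF. So had skeletal muscle markers (6773, 773 and 2840 CPM) and stratified epithelium markers (14851, 13343 and 14094 CPM). Fibroblast, endothelial, and T and NK cell markers shared the reverse order with macrophage and neutrophil markers, while mast cell and cartilage markers had neither order. The other members did not share the order of TNF. These orders rest on 3 libraries, and the share of all tested genes with either order was not counted. Between groups, 11 of 14 macrophage and 7 of 8 neutrophil markers rose in untreated folds, beside 17.7% of tested genes. Other tissue markers differed as well in untreated against normal libraries: 4 of 10 endothelial and 5 of 11 fibroblast markers rose, 2 fibroblast markers fell, and 7 of 10 skeletal muscle and 8 of 9 cartilage markers fell. Fibroblast sums were between 45931 and 50251 CPM in untreated libraries, and skeletal muscle sums between 773 and 6773 CPM. The part of cell content in the rise of the 10 genes was not tested.

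The FPKM ratio of the inhibitor gene NFKBIA to NFKB1 was 1.89, 2.65 and 2.02 in the normal libraries and 10.4, 5.88 and 8.21 in the untreated ones. The groups were apart, and the mean log2 ratio differed by 1.88 (two-sided exact permutation p = 0.1, and adjusted p = 0.1 over the 3 ratios compared). SOT replicate 1 had a ratio of 9.47, within the untreated range, and SOT replicates 2 and 3 had 3.01 and 1.92.

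**Figure D2:**
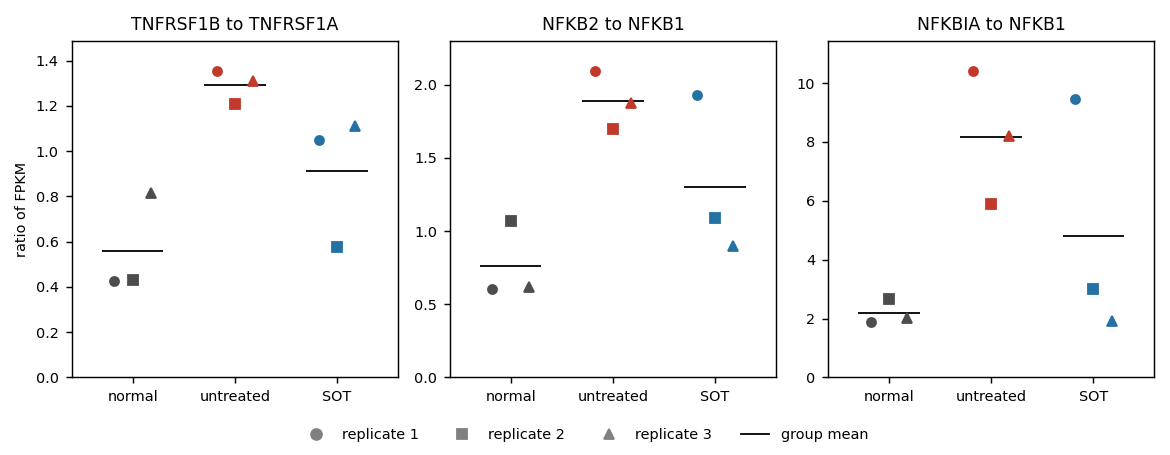
Ratios of FPKM between gene pairs in every library, with points shaped by replicate number and lines at the mean of 3 libraries. Untreated libraries lie above normal ones in each panel, and SOT replicate 1 lies within the untreated range for NFKB2 to NFKB1 (1.93) and NFKBIA to NFKB1 (9.47) but not for the receptors (1.05).

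Per length, NFKBIA was the most abundant of the 10 RNAs in each group, with mean levels of 47.0, 272 and 165 FPKM in normal, untreated and SOT folds. In normal folds TNFRSF1A followed at 31.1 FPKM, then NFKB1 at 21.6, TNFRSF1B at 17.5, NFKB2 at 16.2, BIRC3 at 10.2, TNFAIP3 at 7.47, RELB at 5.50, REL at 2.11 and TNF at 0.949 FPKM. Neighbours in this order had separate ranges, except that NFKB1 overlapped TNFRSF1B and TNFRSF1B overlapped NFKB2. In untreated folds TNF had moved from the last place to the seventh, at 38.0 FPKM, between TNFAIP3 at 54.9 and NFKB1 at 33.2 FPKM, and its range overlapped that of both. RELB and REL were the lowest there, at 19.8 and 4.29 FPKM, and their ranges were apart from each other and from NFKB1. These levels depend on the gene models, of which the deposited table describes the NFKB1 protein as low quality and the RELB protein as partial.

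Untreated folds were then compared with folds given the SOT hydrogel, to ask whether the treatment went with lower expression of these genes. With all libraries, none of the 10 genes passed, and all 10 had estimates below 0, from -0.88 for TNFRSF1B to -0.14 for NFKB1. TNF had a change of -0.37 (SE 1.18, adjusted p = 0.924), and its sign turned to 0.04 without untreated replicate 1 and to 0.20 without SOT replicate 2 or 3. At an unadjusted p under 0.05, edgeR counted 2 of the 10 genes, TNFRSF1B and REL, beside 12.6% of all tested genes. DESeq2, which called 682 genes in all, called 1 of the 10, REL, with a change of -0.64 and an adjusted p of 0.0402, while limma on log2(FPKM + 0.1) called 0 of the 10. By edgeR 0.0115% of tested genes were lower in SOT folds and 2 genes were called in all, with no gene called higher.

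Without SOT replicate 1 the picture of TNF, NFKBIA and TNFAIP3 differed. TNF then fell by 3.92 on the log2 scale (SE 0.46, adjusted p = 0.0143), NFKBIA fell by 1.96 (SE 0.31, adjusted p = 0.0245) and TNFAIP3 fell by 2.27 (SE 0.33, adjusted p = 0.0223). The other 7 genes did not pass, with changes from -1.42 for BIRC3 (adjusted p = 0.0906) to -0.22 for NFKB1 (0.370). The share of tested genes called lower was 1.81% in this fit, and 397 genes were called in all. In SOT replicates 2 and 3 each of the 10 genes was below every untreated library, which held for 20.9% of tested genes. These values rest on 2 SOT libraries, and leaving out a library because it stood apart was decided with its values known.

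**Figure D3:**
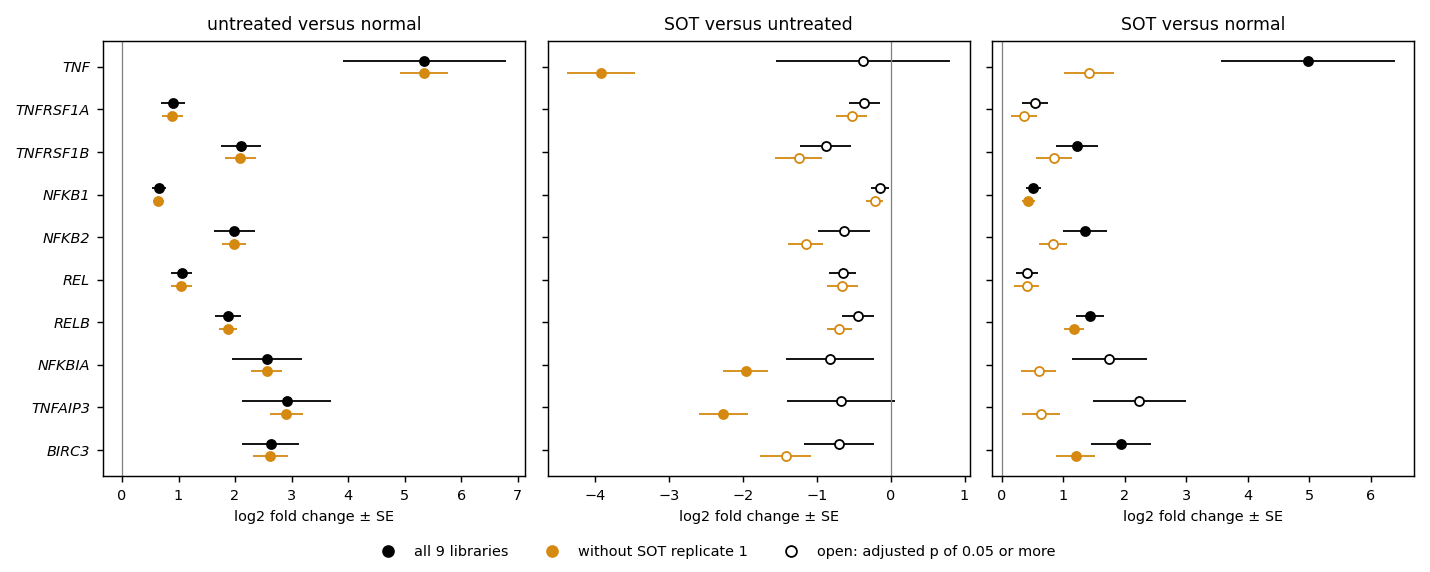
Log2 fold change (horizontal axis, bars of 1 SE) of the 10 genes in the 3 comparisons, with all 9 libraries (black) and without SOT replicate 1 (orange). Filled points have an adjusted p under 0.05; TNF moves from -0.37 to -3.92 in SOT against untreated folds when SOT replicate 1 is left out.

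SOT replicate 1 differed from SOT replicates 2 and 3 to very different extents among the 10 genes. Its TNF level was 33.9 times the mean of the other SOT libraries, TNFAIP3 7.27 times, NFKBIA 4.78 times, BIRC3 3.07 times and NFKB2 2.40 times. The ratio was 1.94 for TNFRSF1B, 1.65 for RELB, 1.46 for TNFRSF1A, 1.23 for NFKB1 and 1.06 for REL. SOT replicate 1 lay within the range of the untreated libraries for TNFRSF1A, NFKB1, NFKB2, RELB, NFKBIA and BIRC3. It lay above that range for TNF and TNFAIP3 and below it for TNFRSF1B and REL. The share of all tested genes in each of these positions was not counted.

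TNFAIP3 had 430.1, 64.1 and 54.2 CPM in SOT replicates 1, 2 and 3, and NFKBIA had 595, 146 and 102 CPM. BIRC3 had 413, 132 and 137 CPM and NFKB2 had 209, 91.4 and 82.9 CPM in the same order. All 4 genes were high in replicate 1 alone. REL had 15.7, 12.6 and 16.9 CPM and was below the untreated libraries in each SOT library, SOT replicate 1 included. TNFRSF1B, with 185, 84.2 and 105.7 CPM, was likewise below every untreated library in all 3. These were the 2 genes whose SOT and untreated groups did not overlap, a separation found in the lower direction for 12.4% of tested genes. RELB had 29.6, 20.1 and 15.8 CPM, NFKB1 had 142, 109.9 and 120.4 CPM, and TNFRSF1A had 188, 156 and 101 CPM.

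On the scale of log2(CPM + 0.5), the difference between SOT replicate 1 and the mean of SOT replicates 2 and 3 was 4.95 for TNF, the largest of the 17344 tested genes. With an offset of 0.1 or 1 in place of 0.5, the rank of TNF was 7 and 3. The median difference was 0.02 over all tested genes and 1.11 over the 10, and 6.22% of tested genes had a difference above 1, as had 5 of the 10. Between untreated replicate 1 and the mean of untreated replicates 2 and 3 the same difference had a median of 0.15 over the 10.

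**Figure D4:**
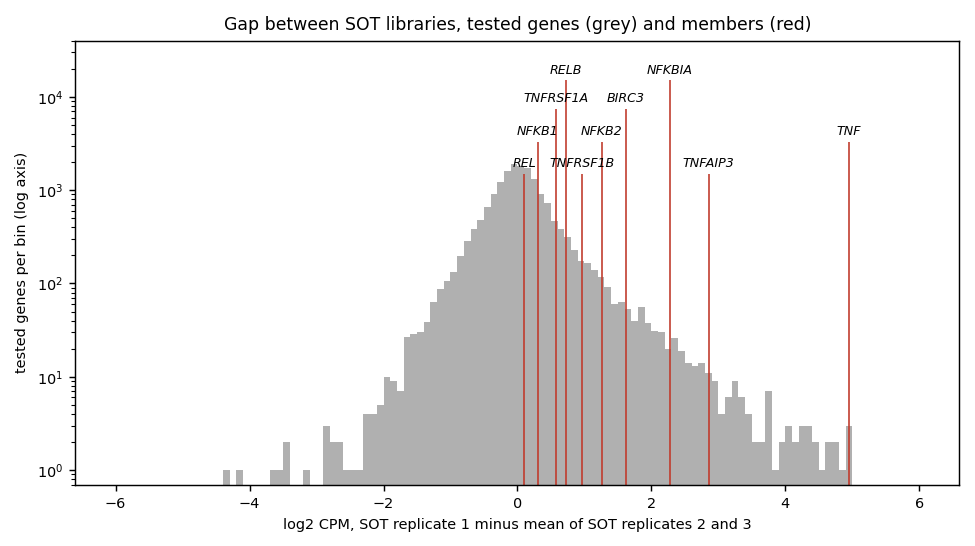
Histogram over the 17344 tested genes of the log2 difference between SOT replicate 1 and the mean of SOT replicates 2 and 3 (horizontal axis), with the number of genes per bin on a log axis and the 10 genes as red lines. TNF lies at 4.95 at the right edge, and REL lies at 0.10 near the middle.

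Some marker sums differed most in SOT replicate 1, and others in another SOT library. Summed neutrophil markers were 5083 CPM in SOT replicate 1 and between 1795 and 2001 CPM in SOT replicates 2 and 3, beside between 5234 and 7198 CPM in untreated libraries. Summed macrophage markers were 1284 CPM in SOT replicate 1 and between 921 and 988 CPM in the other SOT libraries, all below the untreated libraries, of which the lowest had 1743 CPM. Endothelial markers summed to 1894 CPM in SOT replicate 1 and to between 707 and 1102 CPM in the other SOT libraries. SOT replicate 2 was the library apart for fibroblast markers, with 42823 CPM beside 22094 and 23960 CPM in replicates 1 and 3, and for skeletal muscle markers, with 1635 CPM beside 8835 and 7675 CPM. SOT replicate 3 was apart for T and NK cell markers, with 164 CPM beside 43.4 and 37.2 CPM in replicates 1 and 2. Across all tested genes the 3 pairs of SOT libraries were about equally far apart, with Pearson's r of log2 CPM between 0.961 and 0.963. The part of cell content in the level of TNF and its feedback genes was not tested.

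SOT-treated folds were last compared with normal folds, to see which of the 10 genes were above the level of uninjured folds. The comparison shares the SOT libraries with the one before it and the normal libraries with the first. Of the 10 genes, 6 were higher, beside 9.01% of tested genes. They were TNF (4.98, adjusted p = 0.0464), TNFRSF1B (1.22, 0.0464), NFKB1 (0.51, 0.0276), NFKB2 (1.35, 0.0375), RELB (1.43, 0.00758) and BIRC3 (1.93, 0.0326), each value a log2 fold change with its adjusted p. TNFAIP3 (2.24, adjusted p = 0.0772), NFKBIA (1.75, 0.0822), TNFRSF1A (0.54, 0.114) and REL (0.41, 0.160) did not pass. RELB passed without any 1 of the 9 libraries, with adjusted p of at most 0.0345.

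The number that rose was less stable here. Without SOT replicate 1, 3 genes were called: NFKB1 (0.43, adjusted p = 0.0423), RELB (1.17, 0.00958) and BIRC3 (1.20, 0.0484), where 7.38% of tested genes were higher. TNF then had a log2 fold change of 1.42 (SE 0.40, adjusted p = 0.0567), and NFKBIA and TNFAIP3 had 0.60 (adjusted p = 0.193) and 0.63 (adjusted p = 0.192). The count was 1 without normal replicate 1, normal replicate 2 or untreated replicate 3, 3 without untreated replicate 1 or 2, 4 without normal replicate 3, 6 without SOT replicate 2 and 9 without SOT replicate 3. Calls over all genes moved as well, from 2894 with all libraries to between 1135 and 3222 when 1 library was left out. In CPM, 8 of the 10 genes were above every normal library in all 3 SOT libraries, beside 17.8% of tested genes. TNFRSF1A and REL overlapped the normal range.

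Genes whose pattern over the 9 libraries was most like that of TNF were sought by Pearson's r of log2(CPM + 0.5), as a description of libraries that fall into groups. For TNF they included TNFAIP3 (r = 0.997), ITGAD (0.994), which encodes a leukocyte integrin subunit, TAGAP (0.989) and NFKBIA (0.989). For TNFAIP3 they included TNF (0.997), NFKBIA (0.995), ITGAD (0.994) and the chemokine gene CCL4 (0.991). TAGAP, which encodes a GTPase-activating protein, had between 7.19 and 9.46 CPM in normal libraries, between 82.1 and 201 CPM in untreated ones and 204, 9.93 and 20.9 CPM in SOT replicates 1, 2 and 3. Of the other members, BIRC3 had r = 0.969 with TNF and NFKB2 had 0.960, whereas REL had 0.790 and TNFRSF1A 0.866.

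The wider pathway was described with 5 lists of genes, whose counts stand beside the 17.7% of all tested genes that rose in untreated folds. Of 18 tested genes of the TNF receptor complex and its kinases, 7 rose in untreated folds and 11 did not pass, with a list median of 0.30. CASP8, the initiator caspase of the death-receptor branch, rose from 12.8 ± 1.66 to 24.9 ± 1.77 CPM (SD, n = 3), with calls lost without normal replicate 2 (adjusted p = 0.0571) or untreated replicate 2 (0.0560). RIPK1, the kinase at the receptor, rose by 0.88 (SE 0.15, adjusted p = 0.00407) and MAP3K7, the kinase TAK1, by 0.47 (SE 0.10, adjusted p = 0.00961). The adaptor TRADD rose by 0.58 (adjusted p = 0.0159) and failed the threshold without normal replicate 1 (0.0576), untreated replicate 2 (0.0584) or untreated replicate 3 (0.0695). The 7 genes became 4 without normal replicate 1 or SOT replicate 2, 3 without normal replicate 2 or untreated replicate 3, and 2 without untreated replicate 2. Over all genes the count of calls, 5692 with all libraries, became 3824 or 4082 when normal replicate 1 or 2 was left out, 3418 or 3145 when untreated replicate 2 or 3 was, and 5790 when SOT replicate 2 was.

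Of 18 tested genes of other NF-kappaB inhibitors and deubiquitinases, 12 rose and 6 did not pass, with a median of 0.84. TNIP3, an A20-binding protein, rose from 1.03 ± 0.410 to 18.7 ± 4.56 CPM, and the IkappaB gene NFKBIE by 2.30 on the log2 scale (SE 0.17, adjusted p = 0.000236). ZC3H12A, an RNase that degrades cytokine transcripts, rose by 2.28 (SE 0.28, adjusted p = 0.00121) and BCL3, a nuclear IkappaB protein, by 2.17 (SE 0.35, adjusted p = 0.00305). These 4 kept their calls without each of the 9 libraries.

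In the list on TNF processing and RNA decay, 8 of 12 tested genes rose and 4 did not pass, with a median of 0.52. ZFP36, which encodes tristetraprolin, a protein that marks TNF RNA for decay, rose from 48.1 ± 6.01 to 282 ± 35.2 CPM. ADAM17, the protease that releases soluble TNF, rose from 84.5 ± 5.93 to 211 ± 13.6 CPM, and RHBDF2, the rhomboid-like protein that carries ADAM17 to the cell surface, from 28.2 ± 0.969 to 134 ± 18.7 CPM. LITAF rose by 1.78 (SE 0.29, adjusted p = 0.00317). The 4 named genes kept their calls without each of the 9 libraries.

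Of 33 tested TNF superfamily ligands and receptors other than the members, 11 rose, 1 fell and 21 did not pass, with a median of 0.38. The death receptor gene FAS rose from 10.5 ± 0.981 to 67.2 ± 10.2 CPM, TNFSF13B, the B cell factor BAFF, from 4.03 ± 1.06 to 24.8 ± 3.86 CPM and TNFSF8 by 2.46 on the log2 scale. TNFSF11, or RANKL, rose by 3.35 (adjusted p = 0.0280), a call that ended when normal replicate 1 (0.0665), 2 (0.0896) or 3 (0.0761) or untreated replicate 2 (0.0754) or 3 (0.0688) was left out. Of 28 tested textbook NF-kappaB targets, 18 rose, 2 fell and 8 did not pass, with a median of 1.93. The targets that fell were NOS2, from 23.5 ± 7.43 to 5.13 ± 1.55 CPM, and SOD2, the mitochondrial superoxide dismutase, from 476 ± 37.4 to 210.4 ± 24.5 CPM, both named after their values were seen. MMP9 rose by 6.32, IL1B by 5.96 and CXCL8 by 5.71 on the log2 scale, and CSF2, with no count in any normal library, reached 1.48 ± 0.189 CPM in untreated ones. The IL1B call was lost without normal replicate 1 (0.0603) or 2 (0.0550), and that of CXCL8 without normal replicate 1 (0.0694), 2 (0.0662) or 3 (0.0507) or untreated replicate 3 (0.0501).

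In SOT against untreated folds none of these 5 lists held a called gene by edgeR with all libraries, while 2, 3, 2, 6 and 4 genes had an unadjusted p under 0.05, in the order given above, against 12.6% of all tested genes. DESeq2 called 0, 2, 2, 2 and 0 genes, out of the 682 it called in all. Without SOT replicate 1, where 1.81% of tested genes were lower, 7 genes fell: NFKBIE by 0.87 (adjusted p = 0.0309), ADAM17 by 0.63 (0.0351), RHBDF2 by 1.35 (0.0147), FAS by 1.42 (0.0188), IL1B by 4.42 (0.0418), CCL4 by 3.86 (0.0459) and BCL2A1 by 2.43 (0.0168). CCL4 and BCL2A1 were named after their values were seen. RHBDF2 had 74.9, 57.4 and 45.5 CPM in SOT replicates 1, 2 and 3 and between 113 and 149 CPM in untreated libraries, so SOT replicate 1 was low there as well. IL1B followed TNF, with 1392, 83.1 and 24.9 CPM in SOT replicates 1, 2 and 3. CXCL8 had 1981, 132 and 33.4 CPM in the same libraries. The kinase list held no called gene, and CASP8 had 16.0, 24.0 and 31.8 CPM, lowest in SOT replicate 1.

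**Figure D5:**
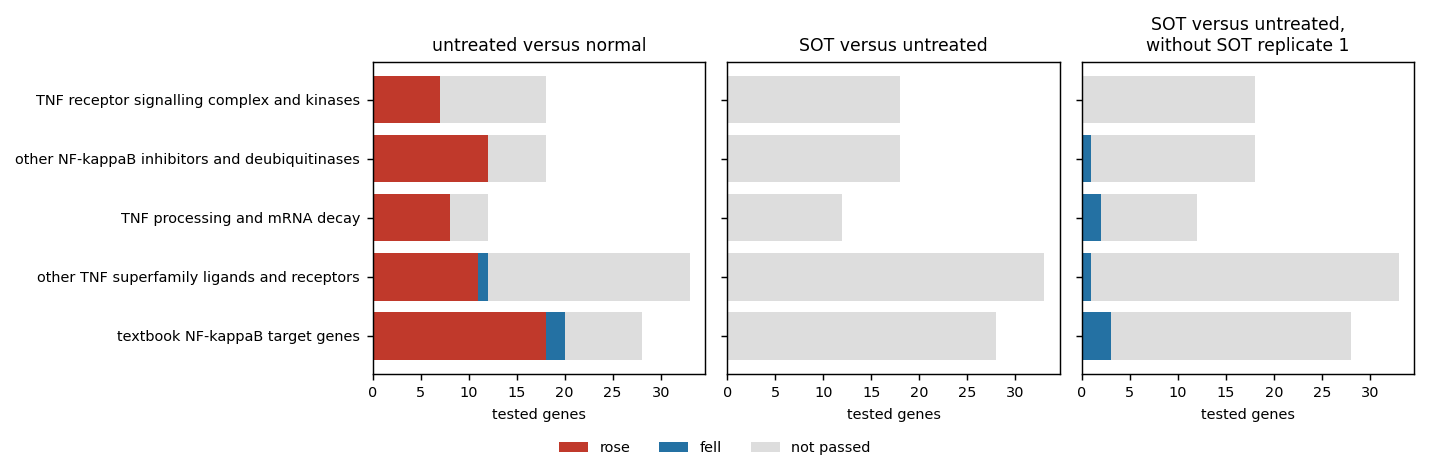
Number of tested genes per pathway list (horizontal axis) that rose (red), fell (blue) or did not pass (grey) in untreated against normal folds, in SOT against untreated folds, and in the latter without SOT replicate 1. The numbers that rose in the first panel are 7, 12, 8, 11 and 18 from top to bottom, and 7 genes fell in the last panel.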

How the data were processed

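The submitters' processing notes name the build OryCun2.0 and the tools HISAT2 2.0.4, cutadapt 1.9, StringTie 1.3.4d and edgeR (no version), without their roles. Strandedness and the treatment of reads that match more than 1 gene were not stated there. The deposited table gave whole-number read counts and FPKM values per gene and library, per the file headers. Genes are those of the deposited table, and RefSeq symbols (from another assembly) replaced 530 of 5734 locus names. Chromosome numbers were read from the table's sequence names. No sequences were used here.

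The count test was edgeR 4.0.16 (R 4.3.3) with filterByExpr, which kept 17344 genes, TMM scaling and a quasi-likelihood fit over the 9 libraries with a term for each group. The fit was tested on simulated data that had the same spread for every gene and changes in the untreated group only. That test does not bear on the SOT comparisons. CPM are scaled by the same factors. Alternatives used DESeq2 1.42.0, limma 3.58.1 on log2(FPKM + 0.1) and log2(FPKM + 1), other scaling, filter and samples, and left out each library. Replicate pairs differed by far more than counting noise.

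The members, lists and tests were chosen with earlier results of these data known. The genes named were all members; up to 4 genes per pathway list, taken by size of change from those called in untreated against normal folds (2 with the smallest p where none passed); those that passed in SOT against untreated folds; and 5 genes of at least 1 CPM most like TNF or TNFAIP3, of which 1 is not reported here.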

Additional observations from a re-analysis of the deposited data

How the results depend on the processing

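The rise of all 10 genes in untreated folds was called under each of the 7 settings that kept all libraries of the pair, and the count was between 6 and 10 when 1 library was left out. For all genes the count of 5692 ranged from 3145 to 6026 when 1 library was left out. In SOT against untreated folds the gene count of 2 was 682 by DESeq2, 0 and 27 by limma with an offset of 0.1 and 1, 0 with only the 2 groups compared, 0 with the replicate block, and between 0 and 397 when 1 library was left out. The count of members was 1 by DESeq2 and between 0 and 3 when 1 library was left out. TNF was -3.92 on the log2 scale without SOT replicate 1 and turned to 0.04 without untreated replicate 1, 0.20 without SOT replicate 2 and 0.20 without SOT replicate 3. In SOT against normal folds the gene count of 2894 was 4819 by DESeq2, 1578 with only the 2 groups compared and between 1135 and 3222 when 1 library was left out. The 6 members there were 8 by DESeq2, 5 by limma with either offset, 1 with only the 2 groups compared and 3 with the replicate block. They were between 1 and 9 when 1 library was left out. On log2(FPKM + 0.1) the median of all tested genes was 0.13 in SOT against untreated folds and 0.12 in SOT against normal folds, beside 0.01 and 0.02 by edgeR, and the median of the 10 genes was -0.64 and 1.39. The causes of these shifts were not tested. The log2 ratios were between 1.12 and 1.59 for TNFRSF1B to TNFRSF1A, 1.22 and 1.62 for NFKB2 to NFKB1, and 1.68 and 2.09 for NFKBIA to NFKB1.

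Libraries shared replicate numbers across groups, but the main fit took no pairing from them. Of 9 same-numbered pairs, 4 had deviations correlated above 0.1, with r from -0.05 to 0.41. Pairs with different numbers had r from -0.40 to 0.25. In 10 of 18 comparisons a library correlated best with its own number, with 3 libraries to choose from each time. With the replicate block in edgeR, TNF was -1.65 on the log2 scale in SOT against untreated folds (adjusted p = 0.609), beside -0.37 in the main fit. Depth did not limit the 10 genes, of which the lowest count in a library was 68, for TNF.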
